A study of Mus musculus with 60 samples.

Results

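The subunit genes of the proteasome, of prefoldin and of the cytosolic chaperonin CCT were followed in striatal polyA RNA of 60 mice. A gene was taken when its symbol, found from the Ensembl identifier, was Tcp1 or started with Psma, Psmb, Psmc, Psmd, Psme, Pfdn or Cct and a digit. This gave 44 of the 9066 genes in the gene table and 459 of the 114691 rows in the exon table. By role they were 5 genes of the 20S alpha ring, 5 of the 20S beta ring, the immunoproteasome gene Psmb10, 6 ATPases and 13 non-ATPases of the 19S particle, the activator Psme4, 5 prefoldin genes and 8 CCT genes. Subunits outside the table, such as Psma3, Psmb5, Psmb8 and Cct6b, were not analysed here.

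The 60 HS-CC mice, a heterogeneous stock descended from the founder strains of the collaborative cross, were all tested for catalepsy, the loss of voluntary movement seen after a dopamine receptor blocker. According to the study's methods the animals came from generations of selective breeding for the response to haloperidol. The labels put 15 females and 15 males among the responders, and 13 females and 17 males among the non-responders, with 1 library per mouse, and the sources used here give no age or treatment at dissection. The study asked how gene networks built from exon usage differ from those built from gene levels, and the labels add the comparisons of phenotype and of sex.

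The proteasome degrades proteins that carry a ubiquitin chain. Its 20S core is a barrel in which outer rings of alpha subunits control entry and inner rings of beta subunits cut the substrate, and the 19S particle on either end recognises the ubiquitin chain and unfolds the substrate with a ring of ATPases. CCT is a double ring of related subunits that folds actin, tubulin and other proteins, and prefoldin is a jellyfish-shaped complex that hands unfolded actin and tubulin to CCT. The subunits of each complex are needed in fixed proportions. In neurons both systems serve the upkeep of long processes and of synapses.

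Reads recovered from the gene table ran from 4913122 to 21872744 per mouse, with a median of 14520042. By reads there were 17 shallow libraries of at most 9507322 and 43 deep ones of at least 12051239. The shallow libraries were spread over all 4 groups (4, 4, 5 and 4 shallow). By mouse number they were mouse 26 and the unbroken run of mice 41 to 56, and the labels do not say what this run stands for. The libraries also differed in 3′ bias, measured here as the slope of the log2 exon values from the first to the last exon row of a gene, as the median over 4048 other genes and relative to the average mouse. This slope had a median of −0.025 and reached 1.57 in mouse 63 (a female responder), 0.934 in mouse 5 (a female non-responder), 0.708 in mouse 4 (a male responder) and 0.488 in mouse 62 (a male non-responder), with 0.188 in the next mouse. All 17 shallow libraries were at or under −0.014. Of the markers of striatal medium spiny neurons, 8 of 12 listed symbols were in the tested table, with a summed value of 57967 to 137889 in every mouse. The list holds both an older and a newer symbol of Drd1. The summed value of the cortical markers (2 of 4 tested) was 267 to 4533. In bulk tissue, fewer cells of a type and less RNA per cell cannot be told apart.

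Promoters of a pair of 20S core genes and a pair of chaperonin genes are shown, because genes went together within the core and within CCT over mice, and the windows let the starts of the genes of both complexes be read side by side. Each runs from 250 bases before the start site to 50 after it, from RefSeq on GRCm38.p6, and 42 such windows of 36 members were found. Capitals mark the letters TGANNNNGC (the core of the antioxidant response element), CCAAT (the NF-Y box), GAANNTTC (the core of the heat shock element) and the consensus site of NRF1 (nuclear respiratory factor 1), searched on both strands. Psma2 (alpha ring) is at chr13:14612992-14613291 on the plus strand, Psmb4 (beta ring) at chr3:94886909-94887208 on the minus strand, Tcp1 (CCT alpha subunit) at chr17:12916079-12916378 on the plus strand, and the first listed of the Cct2 windows at chr10:117063326-117063625 on the minus strand.
Psma2: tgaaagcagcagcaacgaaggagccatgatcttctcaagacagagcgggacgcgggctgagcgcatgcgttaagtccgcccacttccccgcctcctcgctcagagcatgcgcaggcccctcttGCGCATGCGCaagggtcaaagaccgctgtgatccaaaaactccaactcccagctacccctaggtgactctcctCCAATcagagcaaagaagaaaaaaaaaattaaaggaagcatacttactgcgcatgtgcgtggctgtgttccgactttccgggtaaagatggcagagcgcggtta
Psmb4: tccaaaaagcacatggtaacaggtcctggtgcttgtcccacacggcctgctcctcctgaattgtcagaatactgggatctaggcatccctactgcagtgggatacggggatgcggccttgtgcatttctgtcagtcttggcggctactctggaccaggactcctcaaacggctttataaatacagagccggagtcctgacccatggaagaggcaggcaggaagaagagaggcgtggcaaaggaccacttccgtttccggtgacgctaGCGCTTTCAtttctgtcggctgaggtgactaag
Tcp1: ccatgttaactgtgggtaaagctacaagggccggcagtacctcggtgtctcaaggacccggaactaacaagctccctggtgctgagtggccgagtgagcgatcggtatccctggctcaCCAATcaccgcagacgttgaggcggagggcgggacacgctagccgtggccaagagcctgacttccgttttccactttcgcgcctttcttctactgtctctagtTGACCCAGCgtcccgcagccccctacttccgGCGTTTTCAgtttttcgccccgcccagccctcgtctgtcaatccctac
Cct2: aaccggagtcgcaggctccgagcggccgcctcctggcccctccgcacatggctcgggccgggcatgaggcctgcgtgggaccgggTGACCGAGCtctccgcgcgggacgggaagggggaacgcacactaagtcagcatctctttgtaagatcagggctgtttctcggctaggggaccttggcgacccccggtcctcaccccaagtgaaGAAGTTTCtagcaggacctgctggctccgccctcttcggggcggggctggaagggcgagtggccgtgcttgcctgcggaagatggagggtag

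TGANNNNGC was found in 22 of the 42 member windows (52.4%), against 41.3% of the 32851 promoters in the table. CCAAT was in 13 (31%), against 37.4%. CCAAT occurred in 4 of 6 alpha ring windows and 4 of 9 CCT windows, and in 0 of 6 prefoldin windows and 0 of 2 beta ring windows. GAANNTTC was in 1 of 42 (2.38%), the Cct2 window shown, against 7.86% of all promoters, and the NRF1 site in 2 (4.76%), of Psma2 and Cct5, against 0.971%. These are matches of letters only, and no matches overlapped in the windows shown.

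All 44 genes were well measured. Their mean deposited value, a read count scaled by the upper quartile of its library, ran from 244 for Pfdn4 to 2415 for Cct5, with a median of 983 against 695 over the 8535 genes tested. No member fell under 72 reads in any library. Divided by the length of the longest principal coding transcript in GENCODE M21, so that genes can be compared, the median member level was 633 per kilobase, against 231 over all genes. The members thus lay above the typical gene tested, over a range of 8.50-fold. The table holds only genes that passed the study's filters on counts and connectivity. Members have shorter transcripts than the genes tested (median 1591 against 3474 nt), and the gap was smaller before division by length. Cct6a had no transcript marked as protein coding in GENCODE M21 and has no value per kilobase.

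Within the 20S core the alpha subunits were spread more widely than the beta subunits when divided by transcript length. Per kilobase, Psma6 was highest among alpha genes at 1001 ± 196 (SD, n = 60) and Psma2 lowest at 232 ± 45.3. Among beta genes Psmb4 was highest at 1078 ± 195 and Psmb1 lowest at 705 ± 146, a range of 1.53-fold against 4.31-fold for the alpha genes. The contrast rests on the lengths used, 2911 nt for Psma2 and 914 to 1201 nt for the other alpha genes. Mean deposited values, not divided by length, ran from 447 to 1043 for alpha and from 618 to 1276 for beta genes. Psmb10, the interferon-induced replacement for the beta subunit of trypsin-like activity, was at 209 ± 44.2 per kilobase. Its deposited value was 176 to 366 in female and 181 to 319 in male non-responders, and 206 to 518 in female and 192 to 390 in male responders. These ranges overlapped, with the female maximum in mouse 63.

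Among the ATPases, Psmc5 was highest at 1286 ± 193 per kilobase and Psmc6 lowest at 379 ± 76.9. Among the non-ATPases, Psmd6, a subunit of the lid, was highest at 809 ± 103 and Psmd5 lowest at 177 ± 20.4. Psmd5 and Psmd10 (gankyrin) are assembly chaperones that leave the finished particle, although their symbols follow the subunits. Psmd10, on chromosome X, was at 195 ± 39.9 per kilobase. By mean, Psmd5 and Psmd10 were thus the pair of lowest level among the 13 non-ATPase genes. The step from Psmd10 up to the next member was less than the smaller SD of those genes, so Psmd10 was not set apart. Psme4, which encodes the activator PA200, was the lowest of all members at 153 ± 18.1.

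Prefoldin genes ran from 261 ± 80.6 per kilobase for Pfdn4 to 709 ± 158 for Pfdn1. CCT genes ran from 493 ± 77.5 for Cct4 to 1304 ± 172 for Cct5, the highest member of all. The subunits of CCT occur once in each ring of the complex, and their messages here differed by 2.64-fold. In the order of levels per kilobase, 38 of the 42 neighbouring pairs differed by less than the smaller SD of the pair, and the steps beyond it were from Psme4 to Psmd5, Pfdn4 to Psmd13, Psma4 to Psmd12 and Psmb4 to Psmc5.

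**Figure D1:**
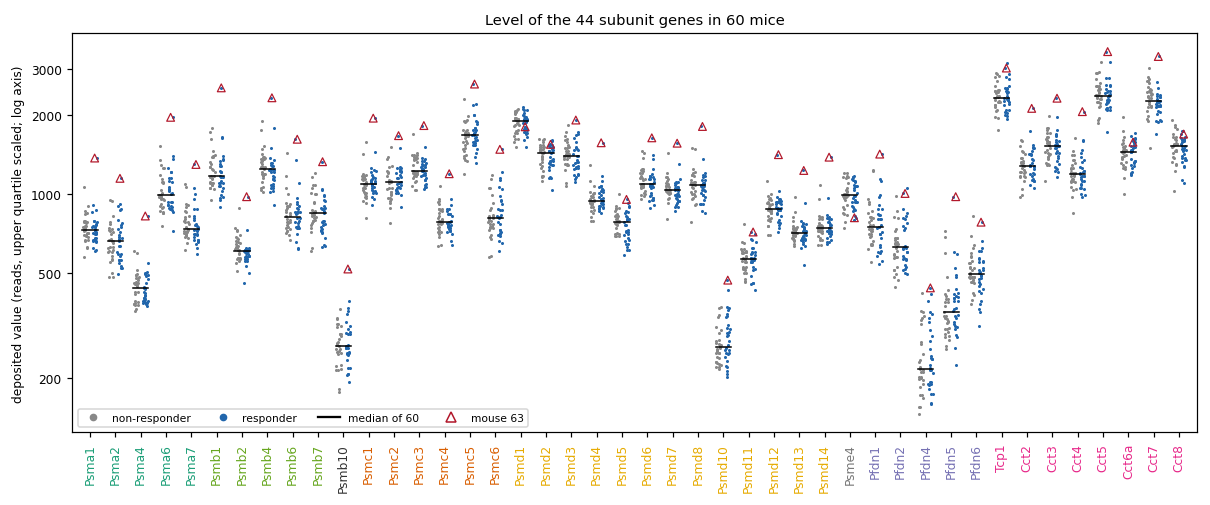
Deposited value (log axis) of each of the 44 genes in the 60 mice, 1 point per mouse, with responders in blue, non-responders in grey, the median as a black line and mouse 63 as an open red triangle. Mouse 63 was the highest of all mice for 34 of the 44 genes, and responder and non-responder points overlapped for every gene.

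The spread between mice differed by role. The coefficient of variation of the deposited value had a median of 0.146 over members and 0.163 over all genes tested. It was lowest for the 19S scaffold genes Psmd1 (0.085) and Psmd2 (0.104), followed by Psmd7 (0.115), and highest for the prefoldin genes Pfdn5 (0.327), Pfdn4 (0.308) and Pfdn1 (0.223). By role the medians were 0.223 for prefoldin, 0.181 for the beta ring, 0.167 for the alpha ring, 0.144 for the ATPases, 0.133 for CCT and 0.124 for the non-ATPases. These values include the strongly biased libraries of mice 63, 5, 4 and 62. The part of 3′ bias in the spread was not tested. Psmd1, the largest subunit of the base, ran from 1515 to 2148 in deposited value, with group medians between 1870 and 1926. Pfdn5, a small prefoldin subunit, ran from 224 to 978. Its group medians were 355 in female and 328 in male non-responders and 368 in female and 392 in male responders, with the highest value again in mouse 63.

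The levels of most members went with the 3′ bias of the libraries. In a limma fit with sex, phenotype and 3′ bias, which was added after the data were seen, 40 of 44 members were higher with bias at adjusted p under 0.05 (Benjamini-Hochberg), against 39.5% of the 8535 genes tested, and 1 was lower, against 37.5%. The median coefficient was 0.46 log2 units per unit of bias for members and −0.00 for all genes. It was largest for Pfdn5 (0.76 ± 0.14 SE), Psmb6 (0.66 ± 0.075) and Pfdn1 (0.66 ± 0.096). The lower member was Psme4 at −0.31 ± 0.066, and Psmd11 (0.09), Psmd2 (0.04) and Psmd1 (−0.05) passed in neither direction.

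Members have short transcripts, with a median of 1591 nt over the 43 with a length against 3474 nt over 7937 genes, and length moved with the same coefficient. Under 1500 nt, 93.4% of 1023 genes were higher with bias, and so were 18 of 18 members. From 1500 to 2500 nt the share was 76.8% of 1506 genes and 19 of 19 members. Over 2500 nt it was 17.9% of 5408 genes and 2 of 6 members, Psma2 and Psmd5. The members' median coefficients in these classes, 0.52, 0.44 and 0.06, stood beside 0.54, 0.34 and −0.20 for all genes of the same lengths, so that the short members moved about as much as other short genes.

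Mouse 63 showed the pattern most clearly. It was above the median mouse in 42 of 44 members, by a median of 1.61-fold and at most 2.74-fold, while over all genes its median fold was 1.00, and it was the highest mouse for 34 members against 24.8% of all genes. In mice 5, 4 and 62 the median fold over members was 1.38, 1.30 and 1.22, with 41, 41 and 40 members above the median mouse. The exon rows of the members tilted the same way. Of the 32 members with at least 5 rows averaging 20 or more, the slope from first to last row was positive in mouse 63 for 32, with a median of 1.15, and in mice 5, 4 and 62 for 31 each.

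When each role was summarised as the mean of its genes' standardised log2 values, its correlation with 3′ bias over 60 mice was r = 0.88 (Spearman rho = 0.70) for the ATPases, 0.85 (0.56) for the non-ATPases, 0.81 (0.45) for the beta ring, 0.80 (0.47) for the alpha ring, 0.68 (0.43) for prefoldin and 0.64 (0.51) for CCT. For Psme4 it was −0.52 (−0.47). Without the 2 mice farthest from the median bias, mice 63 and 5, r was 0.77, 0.66, 0.61, 0.60, 0.52 and 0.54 for the same 6 groups. In the 39 deep mice other than mice 4, 5, 62 and 63 it was 0.04, −0.14, −0.16, 0.08, −0.01 and −0.33, and in the 17 shallow mice −0.03, 0.20, 0.17, 0.29, 0.11 and 0.41. The relation thus rested on the 4 mice of strong bias and on the step between shallow and deep libraries. No p is given, because the libraries fell into these clusters and the members were chosen as a set.

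**Figure D2:**
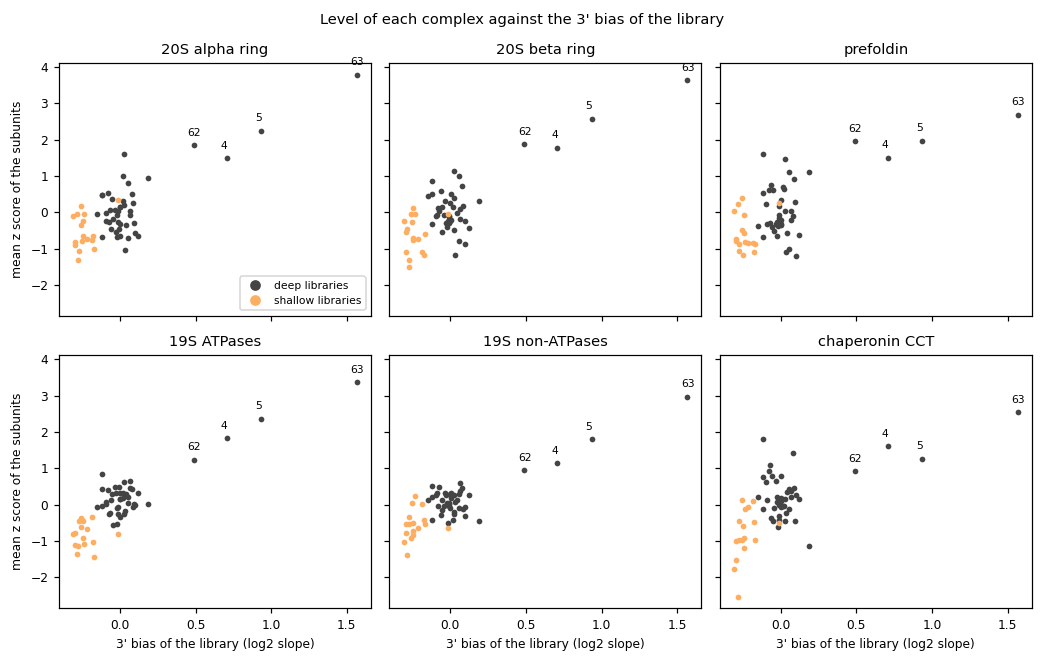
Mean z score of the subunit genes of each role against the 3′ bias of the library, 1 point per mouse, with deep libraries in dark grey and shallow ones in orange. The 4 mice of strongest bias lie to the right, between 0.488 and 1.57, and have a mean z score over 0 in each of the multi-gene complexes, while the remaining mice form a deep cloud near 0 and, for 16 of the 17 shallow libraries, a cluster to its left.

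With bias, sex and phenotype held in the fit, depth class was tested in the same way. Shallow libraries had 10.8% of all genes higher and 7.91% lower, and 4 of 44 members higher and 9 lower. The higher ones were Pfdn5, Psma4, Psmd11 and Psme4, by 0.28, 0.22, 0.17 and 0.14 on the log2 scale. Without adjustment, the mean deposited value of Pfdn5 was lower in shallow libraries (376 against 395 in deep ones). That of Psma4 was 452 against 445, of Psmd11 598 against 557 and of Psme4 1096 against 955. CCT accounted for 4 of the 9 lower ones, namely Cct6a (−0.24), Tcp1 (−0.18), Cct8 (−0.15) and Cct5 (−0.14). The mean deposited value of Cct6a was 1275 in the 17 shallow and 1502 in the 43 deep libraries. The others were Psmb7, Psmc5, Psmc2, Psmc3 and Psmd6. What in the libraries differs between the depth classes was not tested.

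Over the 60 mice the members were coexpressed, much less so once 3′ bias was taken out, and pairs then differed by complex. The median Pearson r over the 946 pairs of members was 0.53, against 0.0017 over all pairs of genes tested. After the line on 3′ bias was taken out of each gene it was 0.20, in the 39 deep mice without strong bias 0.15, and in the 17 shallow mice 0.14. These correlations are descriptions and carry no p, since all genes were measured in the same libraries and the differences in depth and 3′ bias between libraries touch every pair.

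CCT genes went together in each set of mice. Its 28 pairs had a median r of 0.72 over all mice, 0.67 after 3′ bias, 0.58 in the 39 deep mice and 0.74 in the 17 shallow mice. The closest pair was Tcp1 and Cct4, at 0.90 over all mice and 0.84 after bias. Tcp1 encodes the alpha and Cct4 the delta subunit. Tcp1 had deposited values of 1950, 2316 and 2870 (lowest, median and highest) in female non-responders, 1926, 2310 and 3025 in female responders, 1761, 2363 and 2889 in male non-responders and 1985, 2326 and 3167 in male responders. Cct4 ran from 849 in a male non-responder to 2063 in a female responder, mouse 63. The ranges of the 4 groups overlapped for both genes.

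The 20S core and prefoldin went together as well. Pairs of an alpha with a beta gene had a median r of 0.75 over all mice, 0.50 after bias, 0.49 in the deep and 0.51 in the shallow mice. Pairs within prefoldin had 0.67, 0.50, 0.66 and 0.45, and pairs of an alpha gene with a prefoldin gene 0.70, 0.45, 0.54 and 0.44. For a beta gene with a prefoldin gene they were 0.68, 0.44, 0.46 and 0.37. All these medians were over 0 in each set of mice. The closest pair of all 946 was Psma2 with Pfdn1, at 0.91 over all mice and 0.85 after bias, and Psma7 with Pfdn1 had 0.89 and 0.80. Psma2 had a median of 629 in female and 664 in male non-responders and of 676 in female and 634 in male responders. The Psma2 extremes were 481, in a female non-responder, and 1149, in mouse 63.

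CCT and prefoldin, from which CCT receives substrates, had low correlations. Their 40 pairs had a median r of 0.29 over all mice, −0.05 after bias, −0.13 in the deep and −0.24 in the shallow mice. CCT with the alpha ring had 0.39, 0.00, −0.04 and −0.12. CCT was nearer to the 19S particle, with 0.63, 0.34, 0.18 and 0.31 for the ATPases and 0.53, 0.33, 0.23 and 0.37 for the non-ATPases. Whether these medians differ from each other was not tested.

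The 19S particle itself was loose. Its ATPases had a median r of 0.63 over all mice but 0.29 after bias, 0.16 in the deep and 0.13 in the shallow mice, and its non-ATPases 0.41, 0.18, 0.10 and 0.15. Alpha genes with non-ATPases had 0.47 over all mice and 0.02 after bias. A tight group within the 19S particle, picked after its values were seen, was Psmd1, Psmd2 and Psmd3. Psmd1 and Psmd2 are the large scaffold subunits of the base and Psmd3 is a lid subunit. After bias, r was 0.83 for Psmd1 with Psmd2, 0.69 for Psmd2 with Psmd3 and 0.66 for Psmd1 with Psmd3. Psmd11, another lid gene, had a median r of −0.50 with the 10 core genes after bias, from −0.71 with Psmb7 to 0.07 with Psmb2, and an r of −0.64 with the prefoldin gene Pfdn1.

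By the median of its correlations with the other 43 members, Psma1 and Psmb4 (0.70 each) and Psmd14 (0.69), which encodes the deubiquitinase of the lid, stood highest over all mice. Lowest were Psme4 at −0.50, Psmd11 at −0.02 and Psmd1 at −0.01. Psme4 correlated positively with only 3 of 43 members, and its lowest r was −0.71, with Psmb4. Psme4 has the longest annotated transcript of the members, 6491 nt. Those of Psmd1 (3112 nt), Psmd11 (2848 nt) and Psma2 (2911 nt), a gene of the closest pair, are also long. The part of length in these correlations was not tested.

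**Figure D3:**
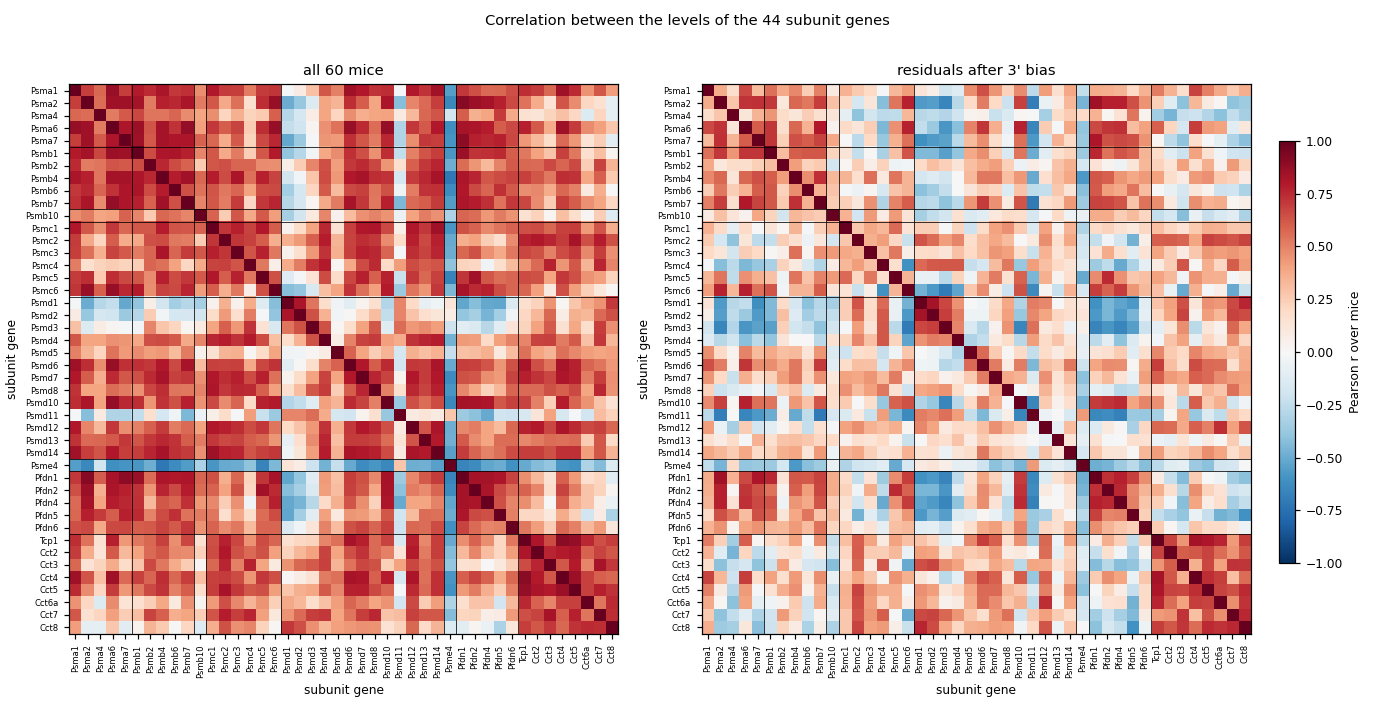
Pearson r over 60 mice for each pair of the 44 genes, ordered by role, on the left from log2 values and on the right after the line on 3′ bias was taken out of each gene. The median over pairs goes from 0.53 to 0.20, and the CCT block in the lower right corner keeps a median of 0.67.

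In the coexpression network at power 6, the connectivity of the members had a median percentile of 75.6 among all genes, with 12 members over the 90th. The most connected were Pfdn1 (99.9), Psma2 (99.1) and Psma6 (98.0). Without the 4 mice of strong bias the median was 60.6 and 4 members stayed over the 90th percentile, Pfdn1 (97.2), Psma2 (96.0), Psma6 (92.8) and Psmc6 (92.0). In the cosplicing network, built from the cosine distance between the exon rows of pairs of mice, the median was 43.2 with 11 members under the 20th percentile, and 29.3 with 8 without those mice. Percentiles over all genes fix the share expected beyond them. Without the 4 mice, the 4 members over the 90th and the 8 under the 20th were near that share. By role the cosplicing medians were 16.6 for prefoldin, 18.1 for the beta ring and 64.7 for CCT over all mice, and 25.3, 21.1 and 48.7 without the 4 mice. Psme4, with 50 exon rows, was at 67.4 in cosplicing and 93 in CoSplicEx, which uses the Canberra distance, and at 97.6 and 96.6 without the 4 mice. These genes were named after their values were seen.

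No member passed the test for the catalepsy phenotype. In the limma fit, 0 of 44 members passed adjusted p under 0.05 for responders against non-responders, where 9 of 8535 genes did (0.105%). At an unadjusted p under 0.05 it was 1 of 44 members, against 6.49% of all genes, and 0 of 44 by edgeR and by DESeq2 on recovered reads. By direction, 21 members were higher and 23 lower in responders, with a median of −0.00 on the log2 scale for members and for all genes. All 44 intervals (95%) lay between −0.20 and 0.29, and 39 of them within 0.2 on either side of 0, so that larger differences of the group means are outside what these fits allow for those genes.

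The member of smallest p was the assembly chaperone Psmd5. Its deposited value was 690, 796 and 1003 (lowest, median and highest) in the 30 non-responders and 586, 746 and 955 in the 30 responders, ranges that overlapped over most of their length. By sex the medians were 806 and 700 in female and 785 and 780 in male non-responders and responders. The difference was −0.09 (SE 0.043, limma p = 0.0456, adjusted p = 0.758). Psmb2, a catalytically inactive beta subunit, had 511, 626 and 887 in non-responders and 459, 595 and 978 in responders, at −0.09 (adjusted p = 0.808). Cct7, the eta subunit of CCT, had 1505, 2381 and 3019 against 1691, 2202 and 3347, at −0.08 (adjusted p = 0.956).

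Psmd10 and Psmc2 completed the 5 of smallest p, with higher means in responders. Psmd10 had 216, 257 and 373 in non-responders and 200, 282 and 470 in responders, at 0.11 (adjusted p = 0.992 by limma). Psmc2, an ATPase, had 780, 1105 and 1509 against 897, 1131 and 1671, at 0.07 (adjusted p = 0.999 by limma). Psmb10 was at 0.04 (SE 0.073) and Psme4 at 0.00. By role, 5 of 5 beta genes had lower means in responders (median −0.07, from −0.086 to −0.0021). Higher means were found for 4 of 5 prefoldin genes (0.07) and 4 of 6 ATPases (0.06), and none of these passed the test. The counts are not of separate observations, since genes of a complex went together over mice.

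**Figure D4:**
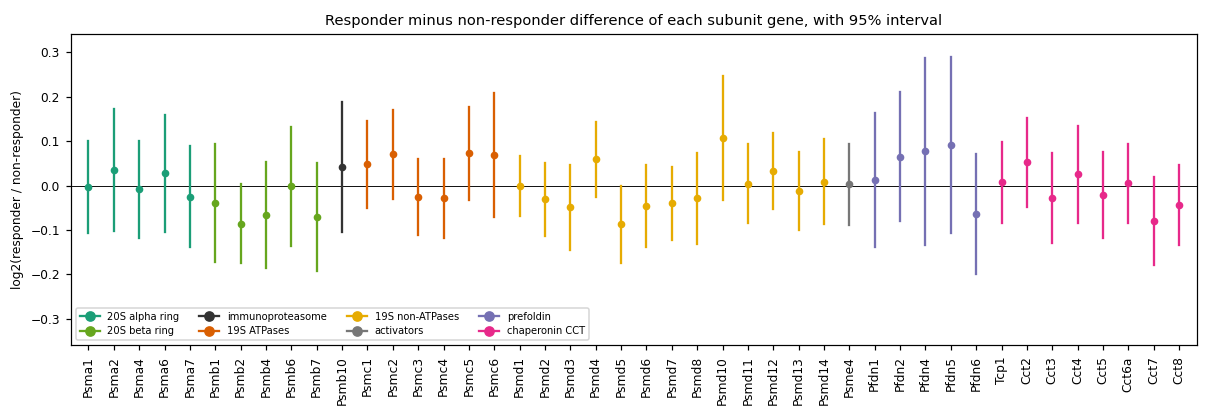
Log2 difference of responders minus non-responders for each of the 44 genes with its 95% interval from limma (60 mice), coloured by role. The points run from −0.09 to 0.11, and the interval of 1 gene, Psmd5, leaves out 0.

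With 3′ bias in the fit, 59 of 8535 genes passed (0.691%) and 0 of 44 members, and at an unadjusted p under 0.05 it was 7 members, all lower in responders, against 10.8% of genes. The smallest adjusted p was that of Psmb2, 0.056, at a difference of −0.11, followed by Psmb4 at −0.10 (adjusted p = 0.193 by limma). The members' median moved from −0.00 to −0.03 in this fit. Both phenotypes held strongly biased libraries, mice 63 and 4 among responders and mice 5 and 62 among non-responders.

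Between the sexes 0 of 44 members passed, where 3 of 8535 genes did (0.0351%), and 0 of 44 were under an unadjusted p of 0.05, against 2.04% of genes, with 0 members passing by edgeR and DESeq2 too. All sex intervals lay between −0.31 and 0.21. Cct2, the beta subunit of CCT, had the smallest p (0.154), with 974, 1306 and 2123 in 28 females and 992, 1280 and 1738 in 32 males, a difference of −0.07 by limma. Psmc5 (−0.08), Psmd11 (−0.06), Psmc1 (−0.06) and Psmc4 (−0.05) followed, and all were lower in males by mean and did not pass. By mean, 7 of the 8 CCT genes were lower and 4 of 5 alpha genes higher in males. Genes of a complex went together over mice, so these are not separate observations. Over all members 15 were higher and 29 lower in males. Without mouse 63, a female, 24 were higher and 20 lower, and without mice 4, 5, 62 and 63 it was 25 and 19. For the interaction of sex and phenotype 0 of 8535 genes passed (0%), and 0 of 44 members were under an unadjusted p of 0.05, against 0.562% by limma, while edgeR and DESeq2 also called 0. The intervals of the interaction reached from −0.37 to 0.50, so that differences between the sexes in the phenotype effect were measured less closely.

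Exon rows were compared with the other rows of their gene by diffSplice of limma. Of the 331 member rows tested 0 passed for phenotype, where 88 of 66690 rows did (0.132%), and 9 were under an unadjusted p of 0.05, against 2.50%. At the level of genes 0 of 44 members passed, where 32 of 7549 genes did (0.424%). The row of smallest p was the second of 14 in Psmc6, which encodes the ATPase Rpt4, at position 45950505 of chromosome 14 (mm9). Its share of the gene's exon values was 0.59%, 1.46% and 3.66% (lowest, median and highest) in non-responders and 0.74%, 1.76% and 4.79% in responders. The difference in usage was 0.36 on the log2 scale (p = 0.000528, adjusted p = 0.216 by limma). With 3′ bias in the fit it was 0.40 (adjusted p = 0.018 by limma), the 1 member row to pass there against 0.265% of rows, while adjusted p was from 0.075 to 1.00 under the other settings. The row rests on few reads, with values of 5 to 33 and a median of 13 per mouse.

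The next rows by p were the last of 3 in Pfdn6 (−0.31), the second of 8 in Psmd5 (−0.21), the first of 7 in Psmb4 (−0.23) and the last of 16 in Cct2 (0.19), each with an adjusted p of 1.00 by limma. The Psmb4 row, which starts the transcript and begins at position 94690691 of chromosome 3 (mm9), held 12.1% to 24.6% of the gene's exon values over mice.

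Along the transcript the last exon row held the largest share of the gene in 25 of 44 members. This was not counted over all genes, so it cannot be read as particular to the members. Of the gene's mean exon values the last row held 84.0% in Psma4, 79.2% in Pfdn5, 79.0% in Psmd11, 73.9% in Psmd7 and 64.2% in Psmc6. At the other end, 123 of the 459 member rows held under 1% of their gene (26.8%), against 36% of all rows. Usage of the 246 member rows averaging at least 50 varied little between mice, with a median SD of 0.17 log2 units against 0.22 over 30764 rows.

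Mouse 22 stood apart in Pfdn4, the gene of prefoldin subunit 4. The fourth of its 5 rows, at position 170342050 of chromosome 2 (mm9), held 3.50% of the gene in mouse 22, with a value of 5, and 22.6% to 44% in the other 59 mice, with a median of 36.4%. It was the 1 member row among 246 (0.407%) whose lowest share was under 0.25 of the second lowest, which held for 1.16% of all rows. Other wide ranges went with mouse 63, in which the last row of Psmd2 reached 44.3% against a low of 17.1% and row 11 of Psme4 fell to 0.859% against a median of 5.21%. These rows were chosen after their values were seen.

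Other genes of the pathways gave 0 called genes for phenotype in each of 6 lists. The list sizes given here count symbols, and some genes were listed under both an older and a newer symbol, such as Shfm1 and Sem1. Of the assembly factors, remaining subunits and regulators of the proteasome 17 of 20 were tested, with Psmg4, a chaperone of alpha ring assembly, at 0.21 (adjusted p = 0.665 by limma), Nfe2l2, a transcription factor of the antioxidant response, at 0.13 and Psmf1, an inhibitor, at −0.10. Of ubiquitin genes and shuttles 10 of 15 were tested, and Ufd1, which works with the segregase Vcp, was at 0.16 (adjusted p = 0.099 by limma), Uba6 at 0.10 and Nploc4 at −0.04. The 4 of 9 prefoldin-like genes and partners were led by Vbp1 (0.10), Uri1 (0.04) and Rpap3 (0.02), the 9 of 20 chaperonin cofactors and substrates by Pdcl3 (0.13), Tubb3 (−0.09) and Gnb2 (−0.05), and the 12 of 21 heat shock genes by Dnaja1 (0.08), Dnaja2 (0.04) and Hspa4l (0.04). Of antigen processing 1 of 10 was tested, Tapbp (0.07). None of these differences passed the test.

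The heat shock chaperones went more closely with CCT than with the 20S core, by the median of their correlations. Their median r with the 8 CCT genes was 0.55 over all mice, 0.50 after 3′ bias, 0.44 in the 39 deep and 0.62 in the 17 shallow mice. With the 10 core genes it was 0.03, −0.25, −0.22 and −0.39, and with prefoldin −0.09, −0.31, −0.32 and −0.48. After bias, and in the deep and the shallow mice taken alone, 12 of 12 heat shock genes had a higher median r with CCT than with the core, a count with no test of the difference. Hsp90b1 (0.68 with CCT after bias), Hsph1 (0.66), Dnaja2 (0.62), Stip1 (0.58), Hspa4 (0.57) and Hsp90ab1 (0.46) were examples, while the mitochondrial chaperonin gene Hspd1 (−0.11) and Hsf1 (−0.09), the factor that drives heat shock genes, stood at the low end. Hsph1, an exchange factor for Hsp70, ran from 2865 to 7468 in deposited value over mice. These genes were named after their values were seen.

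The core and prefoldin had partners of their own. Sem1, a small lid subunit outside the symbol rule, had a median r of 0.86 with the 5 prefoldin genes over all mice, 0.79 after bias, 0.78 in the deep and 0.67 in the shallow mice, and of 0.81, 0.66, 0.69 and 0.62 with the core. Vbp1, the prefoldin subunit that the rule does not take in, had 0.76, 0.63, 0.64 and 0.50 with prefoldin. Pomp, which assembles the 20S core, had 0.80, 0.56, 0.56 and 0.57 with the core and 0.02 with CCT after bias. These 3 genes were also chosen after their values were seen.

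Astrocyte and microglial markers correlated more with the core and prefoldin than with CCT, by their medians. The 4 tested of 6 astrocyte markers had a median r of 0.50 with prefoldin over all mice and after bias, 0.54 in the deep and 0.45 in the shallow mice, against 0.04, −0.09, −0.11 and −0.29 with CCT. For the 6 tested of 9 microglial markers it was 0.56, 0.38, 0.39 and 0.41 with prefoldin and 0.13, −0.20, −0.28 and −0.26 with CCT. After bias the r with the core was over 0 for 4 of 4 astrocyte and 6 of 6 microglial markers. The 5 tested of 6 oligodendrocyte markers had 0.40, 0.21, 0.34 and −0.03 with prefoldin, 0.40, 0.17, 0.30 and 0.03 with the core and 0.12, −0.12, −0.09 and −0.29 with CCT, so that these medians with the core and prefoldin were near 0 in the shallow mice. The summed values were 82894 to 176219 for astrocytes and 3969 to 9482 for microglia in responders, and 97917 to 172028 and 4277 to 9889 in non-responders. Neuronal lists were also compared after bias. The 2 tested cortical markers had a median r of −0.26 with the core, −0.35 with prefoldin and 0.01 with CCT. For the 8 tested markers of striatal medium spiny neurons it was 0.09, −0.07 and 0.13. The part of glial, cortical or striatal content in the correlations was not tested.

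**Figure D5:**
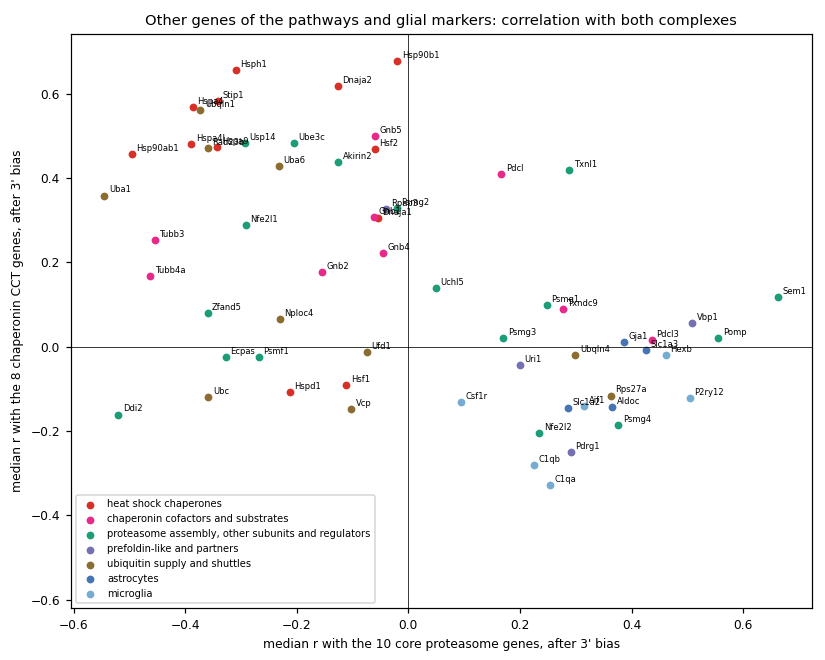
Median Pearson r of single genes with the 10 genes of the 20S core (x axis) and with the 8 CCT genes (y axis) after the line on 3′ bias was taken out, coloured by list. The 12 heat shock genes lie left of 0 on the x axis, between −0.50 and −0.02, and 10 of them above 0 on the y axis, while the 4 astrocyte and 6 microglial markers lie right of 0.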

How the data were processed

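PolyA RNA of hand-dissected striatum from 60 mice was sequenced, 1 library per mouse. Per the labels and the study's methods the authors aligned reads with Bowtie 0.12.7 to NCBI m37 (mm9), with unique alignment, on Ensembl gene models. The values the authors deposited per gene are a signal, namely read counts multiplied by an upper quartile factor (edgeR 3.4.2). Its steps gave whole reads for 100% of values (tolerance 0.01 read). The deposited values per exon row are a score, scaled exon counts rounded to whole numbers. Recovered reads were 4913122 to 21872744 per mouse; with 1 library per mouse, precision came from the spread between mice. Whether strand was counted is not given in the sources used here.

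Groups came from the labels. Genes averaging at least 10 were tested by limma 3.58.1 (trend, log2(value + 1), R 4.3.3) with sex and phenotype, their interaction, and diffSplice for exon rows, adjusted over all features; log2 differences are on the log2(value + 1) scale. edgeR 4.0.16 and DESeq2 1.42.0 on recovered reads were alternatives, beside pseudocounts, filters, scaling, mouse subsets and covariates for depth and 3′ bias. Correlations used Python 3.11.15 with numpy 2.4.6, scipy 1.17.1 and pandas 2.3.3, and figures matplotlib 3.10.9. Symbols were found for 97.7% of identifiers in GENCODE M21 (GRCm38), which also gave strand and transcript length. Members and lists were chosen with earlier results of these data known. The planned permutation p for the role scores was left out, since no p is given for a score over chosen genes. Named genes were those of highest and lowest level per kilobase in each role, of extreme variation or median correlation, Psmb10, Psme4 and the non-subunits Psmd5 and Psmd10, the 5 of smallest p for phenotype and sex, the 5 top exon rows and up to 3 genes per other list. Other genes and pairs were named after their values were seen, also where the text does not mark it. Of 200 genes changed by 0.5 (log2) in simulated data of 8535 genes for phenotype, limma recovered 97.5% with 4 false calls. For edgeR it was 98.5% with 1 and for DESeq2 98.5% with 13. Recovery of gene changes as small as the member differences for phenotype, −0.09 to 0.11, was not tested. Of 200 exon rows changed by 1 among 22391 rows, 100% were recovered, with 22 false calls in other genes.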

Additional observations from a re-analysis of the deposited data

How the results depend on the processing

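No paired analysis was possible because each mouse carries a number of its own and the replicate numbers only follow the order of the labels. The members' result of 0 of 44 for phenotype, sex and their interaction stayed at 0 under every alternative run. The 12 named member differences kept their direction in 151 of 154 values. They turned in shallow mice for Psmd10 (−0.0215) and Psme4 (−0.00677) by phenotype and Cct2 (0.00107) by sex. Apart from Psmb10 and Psme4 they were picked for smallest p in all mice, and most settings share most mice. A kept direction was thus favoured in advance and is no separate support. Genes called for phenotype, 9 in all mice, were 5 at a mean of at least 500, 3 in deep mice, 0 in shallow mice, 20 with depth and 59 with 3′ bias as covariate, and 23 by DESeq2; genes called for sex, 3, were 0 in deep and 1 in shallow mice. Exon rows called, 88, were 19 at a mean of at least 50, 137 without mice 4, 5, 62 and 63, 177 with 3′ bias as covariate (1 of them in a member) and 57 with pseudocount 10. Members higher with 3′ bias, 40 (39.5% of all genes), were 38 without mouse 63 (36.8%), 28 without the 4 mice (19.6%) and 0 in the 17 shallow mice, where 0.0113% of all genes passed. The median r over members, 0.53, was 0.39 by Spearman, 0.44 without mouse 63, 0.30 without the 4 mice, 0.14 in shallow mice, 0.15 in deep mice without those 4 and 0.20 after bias. The r of all members with bias, 0.89, was 0.61 by Spearman, 0.77 without the 2 mice farthest from the median, 0.83 without mouse 63, 0.64 without the 4, 0.38 in shallow mice and −0.17 in deep mice without the 4. By role r also turned there for the beta ring (−0.16), non-ATPases (−0.14), prefoldin (−0.0101), CCT (−0.33) and Psme4 (0.18), and in shallow mice for Psmb10 (−0.38) and the ATPases (−0.0306). Apart from the settings that leave out mice or genes by construction, the cause was not tested. The exon rows of few reads, such as the Psmc6 row, limit what usage tests can show.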
